A study of Mus musculus with 19 samples.

Results

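Desert hedgehog (Dhh) and Indian hedgehog (Ihh) are the Hedgehog ligands of the ovary, and the question addressed here is whether the loss of both changes expression by more than, by as much as, or by less than the sum of the changes after each single loss. For every gene the interaction was computed as the joint change minus the Dhh change minus the Ihh change, all as log2 signal. An interaction of 0 means that the fold changes of the single losses multiply to the joint fold change. Genes called for joint loss and changed at least 2-fold were then sorted into classes by their estimates, which gave 232 classified genes of 12402 tested, from 18 of the 19 arrays. The classified genes were chosen by their joint, Dhh and Ihh changes in these same arrays, so class sizes and signs are a description.

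The arrays measured total RNA of whole ovaries from mice 2 months old, amplified and hybridized to Affymetrix probe sets. The joint-loss group (Ihh_Dhh_dKO, here DKO, 3 arrays) lacked both genes, and the single-loss groups (Dhh_KO and Ihh_KO, here Dhh KO and Ihh KO, 4 arrays each) lacked 1 of them. All 8 control arrays (Ihh_Dhh_dhet) carried 1 disrupted copy of each gene, so no wild-type ovary enters any comparison. The deletion is described as specific to the ovary. The sources used here do not give the Cre line, the strain or the number of animals behind an array. Nothing in the labels says which arrays came from separate animals, so each p-value measures the spread between these arrays.

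Hedgehog ligands bind the receptor Ptch1, which releases Smo from inhibition and lets the Gli transcription factors switch on their targets. Ptch1, Gli1 and Hhip are themselves such targets and serve as standard readouts of the pathway. In the ovary, Dhh and Ihh are made by the granulosa cells of growing follicles, and the responding cells lie in the surrounding mesenchyme, which gives rise to the theca, the androgen-producing and smooth-muscle-containing layer of the follicle.

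The upstream sequences of 3 genes are shown because they stand for the additive class and the class changed only by joint loss. Hhip is the direct pathway target in which Ihh loss alone gave about the joint change, Aebp1 is the joint-only gene with the smallest interaction p of all genes, and Oxtr is a further joint-only gene. Each line gives the 250 bases before the RefSeq transcription start on GRCm38.p6, 5′ to 3′ on the gene's strand, with CpG dinucleotides in capitals.
Hhip, minus strand, chr8:80058009-80058258: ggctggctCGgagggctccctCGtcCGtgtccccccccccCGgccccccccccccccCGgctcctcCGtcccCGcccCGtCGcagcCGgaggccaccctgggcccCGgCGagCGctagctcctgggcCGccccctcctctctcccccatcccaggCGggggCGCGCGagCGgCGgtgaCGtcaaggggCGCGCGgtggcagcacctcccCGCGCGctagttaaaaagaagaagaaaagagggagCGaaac
Aebp1, plus strand, chr11:5861616-5861865: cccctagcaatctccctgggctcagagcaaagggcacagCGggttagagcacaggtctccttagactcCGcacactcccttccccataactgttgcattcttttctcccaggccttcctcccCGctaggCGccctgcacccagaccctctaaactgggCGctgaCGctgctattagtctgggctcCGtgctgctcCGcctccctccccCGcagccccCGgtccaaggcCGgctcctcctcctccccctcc
Oxtr, minus strand, chr6:112489826-112490075: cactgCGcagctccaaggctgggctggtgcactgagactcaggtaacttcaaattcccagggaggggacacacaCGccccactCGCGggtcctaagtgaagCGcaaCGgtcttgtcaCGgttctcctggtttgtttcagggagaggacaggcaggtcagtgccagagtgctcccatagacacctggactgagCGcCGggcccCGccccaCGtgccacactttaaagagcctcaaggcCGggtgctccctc
The Hhip window held 28 CpG dinucleotides, the Aebp1 window 11 and the Oxtr window 12. The GLI motif GACCACCCA, searched on both strands (TGGGTGGTC on the other), occurred in none of the 3 windows and in 74 of 32851 upstream windows of the same length (0.225%). Only 161 of the 232 classified genes (69.4%) matched a window by symbol, so no base composition was compared between classes.

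The arrays fell into 2 sets by a hybridization control. The 3′/5′ signal ratio of the spiked transcript BioC was 0.987 to 1.06 on the DKO arrays and 1.02 to 1.05 on controls 1 to 4. It was 0.685 to 0.779 on Dhh KO arrays and 0.758 to 0.776 on Ihh KO arrays, against 0.737 to 0.781 on controls 5 to 8. Each change was therefore taken within its own set, DKO against controls 1 to 4 and the single losses against controls 5 to 8. The array labelled Ihh KO 4 was left out because its Dhh signal was 2.96, against 527 to 709 on Ihh KO 1 to 3. The 3′/5′ ratio of the Gapdh probe sets, which falls as RNA is better preserved, averaged 1.72 ± 0.0551 on DKO arrays (SD, n = 3) and 1.74 ± 0.0493 on controls 1 to 4 (SD, n = 4). It averaged 2.52 ± 0.312 on Dhh KO (n = 4) and 2.06 ± 0.266 on Ihh KO arrays (n = 3), against 1.94 ± 0.0503 on controls 5 to 8 (n = 4). The mean was thus highest on Dhh KO arrays, but the groups overlapped, with Dhh KO 3 at 2.08 and Ihh KO 3 at 2.37. Of the ovary markers read, Foxl2 was at 3575 to 5143, Inha at 5891 to 9399, Zp3 at 1129.7 to 4264 and Gdf9 at 531 to 2533 over the 18 arrays. Amh, at 35.7 to 244, and Pgr, at 33.4 to 320.0, were lower, so their presence on every array is less clear.

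The ligands were read first, as a description, because the Dhh signal also served to leave out an array. Dhh was 3.85, 4.28 and 14.2 on DKO arrays, against 944, 606, 1371 and 1311 on controls 1 to 4. It was 13.2, 5.14, 18.8 and 25.4 on Dhh KO arrays and 709, 527 and 636 on Ihh KO arrays, against 811, 621, 1077 and 1085 on controls 5 to 8. Dhh signal was thus near the low end of the scale in both genotypes that lack Dhh. Ihh was 51.6, 36.3 and 52.7 on DKO arrays, against 200.2, 180.4, 139 and 425 on controls 1 to 4. On Dhh KO arrays Ihh was 145, 108, 168 and 139, and on Ihh KO arrays 12.5, 35.1 and 43.5, against 225, 238, 160.0 and 206 on controls 5 to 8. Ihh was below every control of its set on DKO and on Ihh KO arrays, and the Dhh KO values overlapped those of controls 5 to 8. The interaction was −0.33 ± 0.52 (SE) for Dhh and 1.10 ± 0.61 for Ihh. No p is given for Dhh, since its signal was used to leave out an Ihh KO array. The Ihh interaction was not called (limma adjusted p 0.294).

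Hhip, which encodes a membrane protein that sequesters Hedgehog ligands, was an additive gene, since Ihh loss alone brought it about as low as joint loss did. Its signal was 16.1, 16.2 and 11.1 on DKO arrays, against 123, 149.8, 145 and 284 on controls 1 to 4. Ihh KO arrays gave 49.9, 17.1 and 9.43 and Dhh KO arrays 256, 220.1, 178 and 265, against 192, 245, 235 and 281 on controls 5 to 8. DKO and Ihh KO arrays lay below all controls of their sets, and Dhh KO arrays overlapped them. The joint change was −3.02 ± 0.35, the Ihh change −3.10 ± 0.35, the Dhh change −0.05 ± 0.32 and the interaction 0.13 ± 0.56 log2 units (SE). Multiplying the single fold changes predicted a DKO signal of 12.4, and the DKO arrays had a geometric mean of 14.3.

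Ptch1, the Hedgehog receptor, fell less than Hhip. Its signal was 2128, 2381 and 2105 on DKO arrays, against 3763, 4048, 3883 and 3921 on controls 1 to 4. Ihh KO signals were 3226, 2950.1 and 3582 and Dhh KO signals 5421, 5338, 4959 and 4704, against 4259, 4236, 4351 and 5104 on controls 5 to 8. Every DKO and every Ihh KO array was below all controls of its set, while 2 of 4 Dhh KO arrays were above all of them. The joint change of −0.82 ± 0.09 stayed under 2-fold, so Ptch1 has no class. Its interaction was −0.55 ± 0.15, with an adjusted p of 0.0571 in limma, and another Ptch1 probe set gave 0.616, so the sign rests on the probe set. Gli1, the transcription factor that amplifies the response, was under the signal filter and was not tested. It was listed at 7.33 ± 5.18 on DKO arrays (SD, n = 3) and 122 ± 33.4 on controls 1 to 4 (n = 4). It was listed at 74.7 ± 9.11 on Dhh KO (n = 4) and 33.9 ± 15.3 on Ihh KO arrays (n = 3), against 60.1 ± 31.9 on controls 5 to 8 (n = 4).

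Across the pathway list (ligands, receptors, co-receptors and signal transducers), 0 of 13 tested members had a called interaction in limma. Of all tested genes 2.21% had one, and 3 list members had an unadjusted p under 0.05. The 2 members that fell with joint loss (1.84% of all tested genes) were the deleted genes, Dhh and Ihh. The median interaction of the list was 0.39, against 0.08 over all 12402 genes. Smo, the signal transducer that Ptch1 inhibits, had an interaction of 0.04 ± 0.19, and −0.952 on another probe set. The transcription factor Gli3 had 0.76 ± 0.27 (limma adjusted p 0.11) and the kinesin-like regulator Kif7 0.83 ± 0.26 (limma adjusted p 0.0758). Cdon, a ligand co-receptor, had 1.03 ± 0.64 (limma adjusted p 0.347).

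Joint loss was called for 439 genes (3.54% of those tested, limma adjusted p under 0.05), with 211 higher (1.7%) and 228 lower (1.84%) in DKO ovaries. Of these, 232 (1.87%) changed at least 2-fold, 109 upward (0.879%) and 123 downward (0.992%). Dhh loss was called for 1 gene (0.00806%), Dhh itself, and 1098 genes had an unadjusted p under 0.05. Ihh loss was called for 61 genes (0.492%), 16 higher (0.129%) and 45 lower (0.363%) in Ihh KO ovaries. The interaction was called for 274 genes (2.21%), of which 183 were positive (1.48%) and 91 negative (0.734%). That balance depends on the scaling, since 66.8% of the calls were positive with the signals as deposited and 30.9% of 81 calls after each array was centred on its median, which moved the median interaction of all genes by −0.231. Among the 274, joint loss was called at 2-fold or more for 46 genes, called under 2-fold for 35 and not called for 193. Called interactions had sizes between 0.46 and 6.42 log2 units, and 202 exceeded 2-fold.

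The number of interaction calls depended on how the control arrays were treated. Controls 1 and 5, 2 and 6, 3 and 7, and 4 and 8 deviated together from their set means across genes (correlations 0.538 to 0.769, against −0.632 to 0.161 for the other combinations), and the fit gave such arrays a shared correlation of 0.648. The labels do not say whether matched arrays hold the same RNA, in which case the 8 control arrays would stand for 4 samples. With the controls unmatched limma called 0 interactions, with 1923 genes at an unadjusted p under 0.05 and a smallest adjusted p of 0.0505. That fit changes the errors and leaves the estimates as they are. With the Gapdh ratio as a covariate, an alternative chosen after seeing the data, limma also called 0, with 1512 genes at an unadjusted p under 0.05 and a smallest adjusted p of 0.0956. Leaving out single arrays gave 4 calls without Ihh KO 2 and 848 without control 4. The interaction carries more error than the joint change by construction (median SE 0.276 against 0.171). The Dhh KO and Ihh KO arrays also enter it, and controls 5 to 8 enter it with a weight of 2. Estimates with their errors are therefore given beside each call.

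The 232 genes divided unevenly among the classes, in which every change was given the sign of the joint change. Changed only by joint loss were 123 genes (53%), with both single losses within 0.5 log2 units and an interaction of 0.5 or more, 75 of them higher and 48 lower in DKO ovaries. More than the sum, with an interaction of 0.5 or more and a single-loss estimate of 0.5 or more the same way, held 38 genes (16.4%), 12 higher and 26 lower. Additive genes, with an interaction within 0.5, numbered 38 (16.4%), 8 higher and 30 lower. Less than the sum held 14 genes (6.03%), all lower in DKO ovaries. The deleted genes are counted in these classes, Dhh as additive and Ihh as less than the sum. In the remaining 19 genes (8.19%), called opposed here, the estimate of a single loss lay at 0.5 or more against the joint change. Neither Dhh loss nor Ihh loss was called by limma for any of these 19 genes, so this class rests on estimates. Ihh loss was called for 3 of the 38 more-than-the-sum genes. The thresholds cut a continuous spread, since Gnao1 lay just inside the limit with 0.5096 and Ptger3 just outside with 0.4941, and Dnm3 and Zfp979 straddled the 2-fold limit with joint changes of 1 and 0.9974 in size.

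**Figure D1:**
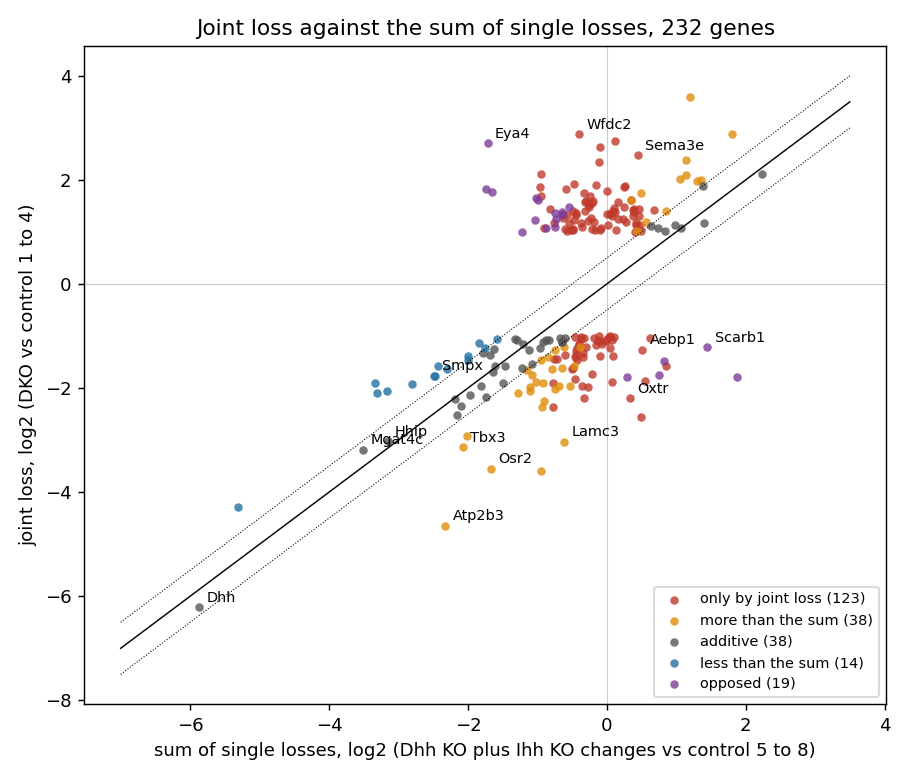
Joint change (DKO against controls 1 to 4, vertical axis) plotted against the sum of the Dhh KO and Ihh KO changes (against controls 5 to 8, horizontal axis), both log2, for the 232 classified genes. The solid line marks equality and the dotted lines an interaction of 0.5 to each side. The 123 genes changed only by joint loss stand above and below 0 on the horizontal axis, and Hhip lies on the line.

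The median interaction in the direction of the joint change was 1.32 for genes changed only by joint loss, 0.962 for more than the sum and 2.26 for opposed genes. It was 0.166 for additive genes and −0.718 for less than the sum. The class rule sets these signs. Called interactions numbered 28 of 123, 3 of 38 and 15 of 19 in the classes changed only by joint loss, more than the sum and opposed, and 0 in the additive and less-than-the-sum classes, where limma gave an unadjusted p under 0.05 for 0 and 1 genes. DKO arrays did not overlap controls 1 to 4 for 1635 of all tested genes (13.2%). They did not overlap for 111, 36, 36, 11 and 16 members of the classes in the order only by joint loss, more than the sum, additive, less than the sum and opposed, which the choice of members fixes in large part.

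The array labelled Ihh KO 4 entered no class and is shown only as a further reading. On it the median of the 75 joint-only higher genes was −0.0252 and that of the 48 joint-only lower genes 0.0212 log2 units from the control mean. Genes below the controls on Ihh KO 1 to 3 were nearer to the controls on it. The 14 less-than-the-sum genes had medians of −2.44, −2.13 and −1.2 on Ihh KO 1 to 3, and it read −0.247 for them. For the 30 additive lower genes the medians were −1.15, −1.12 and −0.66 on Ihh KO 1 to 3 and −0.133 on that array. Its Hhip signal was 105 and its Osr2 signal 1134.

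**Figure D2:**
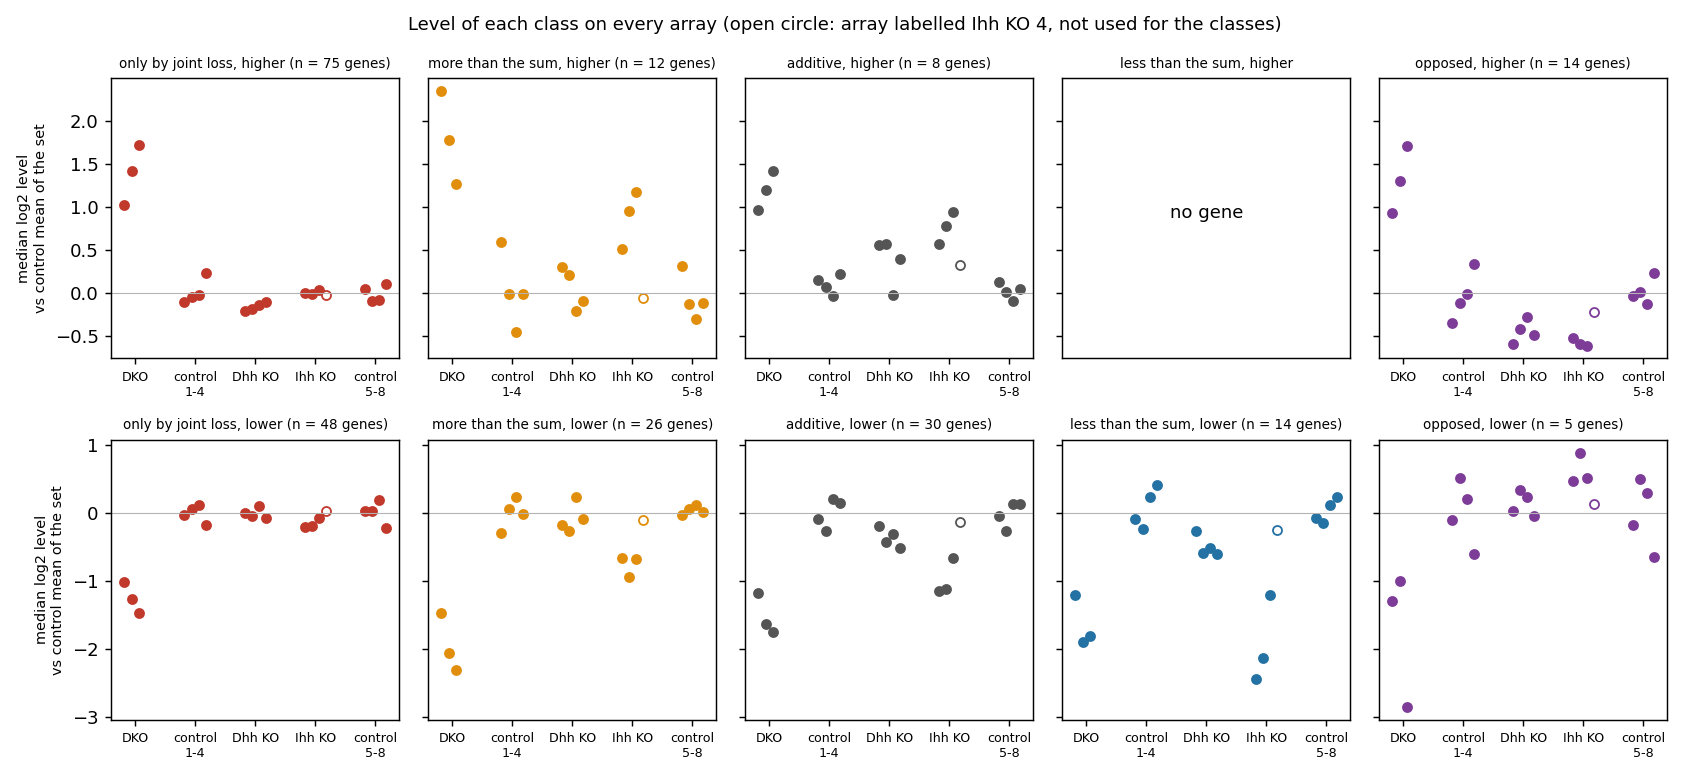
Median log2 level of each class on every array, relative to the control mean of its set, with genes higher in DKO in the upper row and genes lower in DKO in the lower row. Points are arrays, and open circles mark the array labelled Ihh KO 4, which was not used. DKO medians of the 75 joint-only higher genes were 1.02, 1.41 and 1.72 and Ihh KO 1 to 3 medians lay between −0.00651 and 0.0374.

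The 26 more-than-the-sum genes that were lower in DKO ovaries had medians of −1.47, −2.06 and −2.31 on DKO arrays and −0.656, −0.934 and −0.681 on Ihh KO arrays, relative to the controls of each set. Osr2, a zinc-finger transcription factor of mesenchyme, had signals of 66.5, 65.7 and 56.1 on DKO arrays, against 864, 819, 951 and 630.1 on controls 1 to 4. On Ihh KO arrays it was 176, 138 and 469 and on Dhh KO arrays 898, 617, 969 and 739, against 665, 935, 700.1 and 774 on controls 5 to 8. All DKO arrays were below all Ihh KO arrays, and the Dhh KO arrays spread around their controls. Joint loss changed it by −3.55 ± 0.31, Ihh loss by −1.72 ± 0.31, Dhh loss by 0.06 ± 0.28, and the interaction was −1.89 ± 0.49 (limma adjusted p 0.0517). The product of the single changes predicted a DKO signal of 250.1, and the DKO geometric mean was 62.6. A second Osr2 probe set had an interaction of −0.266, which is within the additive limit.

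Lamc3, which encodes a laminin chain of basement membranes, had a called interaction. Its signal was 26.7, 22.1 and 17.9 on DKO arrays, against 142, 252, 327 and 239 on controls 1 to 4. Its Ihh KO values were 219, 124 and 69.3 and its Dhh KO values 141, 299.8, 252 and 152, against 136, 206, 295 and 183 on controls 5 to 8. Both single losses overlapped their controls, and the DKO arrays lay apart from every other array. The log2 change with joint loss was −3.03 ± 0.34, the Ihh change −0.64 ± 0.34, the Dhh change 0.03 ± 0.32 and the interaction −2.41 ± 0.55 (limma adjusted p 0.0355). The multiplied prediction was 147.7, against a DKO geometric mean of 22. A second Lamc3 probe set had a Dhh change of 0.373, an Ihh change of −0.132 and an interaction of −2.6. These values meet the joint-only limits, so the class of Lamc3 rests on the probe set.

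Tbx3, a T-box transcription factor, was 178, 123 and 78.2 on DKO arrays, against 1051, 1179, 1817 and 669.8 on controls 1 to 4. It was 1717, 850.2, 1439.7 and 1165 on Dhh KO arrays and 270.0, 223 and 537 on Ihh KO arrays, against 1356, 1459, 1973 and 743 on controls 5 to 8. DKO arrays lay below all Ihh KO arrays, and the interaction of −1.06 ± 0.55 was not called (limma adjusted p 0.259) and was −0.456 on another probe set. The calcium pump Atp2b3 was 7.71, 10.1 and 23.3 on DKO arrays, against 361, 610.1, 817 and 307 on controls 1 to 4, and its Ihh KO arrays gave 28.7, 16.9 and 82.4. Controls 5 to 8 read 164, 256, 423 and 233 for Atp2b3. Its interaction was −2.32 ± 0.69 (limma adjusted p 0.0704), and −0.946 with all 8 controls as 1 mean (limma adjusted p 0.299). Sorcs2, a receptor of the sortilin family, was 151, 140.1 and 179 on DKO arrays, against 549, 1009, 864 and 998 on controls 1 to 4. Ihh KO arrays gave 506, 457 and 340.0, all below controls 5 to 8 at 547, 992, 855 and 901, while Dhh KO arrays at 650.5, 668, 1049 and 828 overlapped them. Its interaction of −1.43 ± 0.34 was called (limma adjusted p 0.0377).

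Bpifb5, of the BPI-fold family, had 58.9, 23 and 39 on DKO arrays, against 616, 177, 239 and 471 on controls 1 to 4, with Ihh KO at 60.7, 48.6 and 252 and an interaction of −0.92 ± 0.76 (limma adjusted p 0.493). Ihh KO 3 was the highest of the Ihh KO arrays there, as it was for Osr2, Tbx3 and Atp2b3, whereas it was the lowest of them for Lamc3 and Sorcs2. Its Osr2 signal of 469 lay closest to controls 5 to 8, and without it the Osr2 interaction was −1.37 (limma adjusted p 0.0569).

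The 12 genes of this class that were higher in DKO ovaries included Tac1, the precursor of the neuropeptide substance P, and Cma1, a mast cell chymase. Tac1 was 1164, 1364 and 639 on DKO arrays, against 375, 162, 80.4 and 242 on controls 1 to 4. After Ihh loss the arrays read 527, 537 and 537 and after Dhh loss 286, 259, 91.5 and 207, against 446, 177, 131 and 205 on controls 5 to 8. DKO arrays exceeded every other array, and the interaction of 1.25 ± 0.68 was not called (limma adjusted p 0.282). Cma1 was 1429, 530.0 and 144 on DKO arrays, against 68.5, 81.9, 59.9 and 36.3 on controls 1 to 4, and Ihh KO arrays gave 434, 524 and 198. Its interaction was 1.07 ± 0.86, and the DKO arrays themselves were far apart. The summed signal of the 11 mast cell markers was 4922, 2141 and 3103 on DKO arrays, against 1091 to 1321 on controls 1 to 4. It was 990.9 to 1344 on Dhh KO and 2057, 2389 and 1288 on Ihh KO arrays, against 1118 to 1544 on controls 5 to 8. On DKO 3 the histamine-forming enzyme Hdc gave 2216 of that sum and Kit 284, while the mast cell carboxypeptidase Cpa3 was at 59.3 and the receptor subunit Ms4a2 at 3.32. In whole ovaries more cells of a type and more RNA per cell cannot be told apart. Frzb, a secreted Wnt antagonist, was 944, 794 and 189.9 on DKO arrays, against 142, 127, 126 and 109 on controls 1 to 4, with an interaction of 0.65 ± 0.72. Col8a1, a short-chain collagen, was 892, 1284 and 1050.0 on DKO arrays, against 176, 518, 455 and 222 on controls 1 to 4, with Ihh KO at 383, 463 and 929 and an interaction of 1.26 ± 0.59 (limma adjusted p 0.215). DKO arrays lay above all controls 1 to 4 for both genes. A second Frzb probe set had a Dhh change of −0.0216, an Ihh change of 0.354 and an interaction of 1.54. These values meet the joint-only limits. Another Col8a1 probe set (Dhh −0.515, Ihh −0.406) met the opposed limits and a further set (Dhh −0.476, Ihh 0.457) the joint-only limits.

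**Figure D3:**
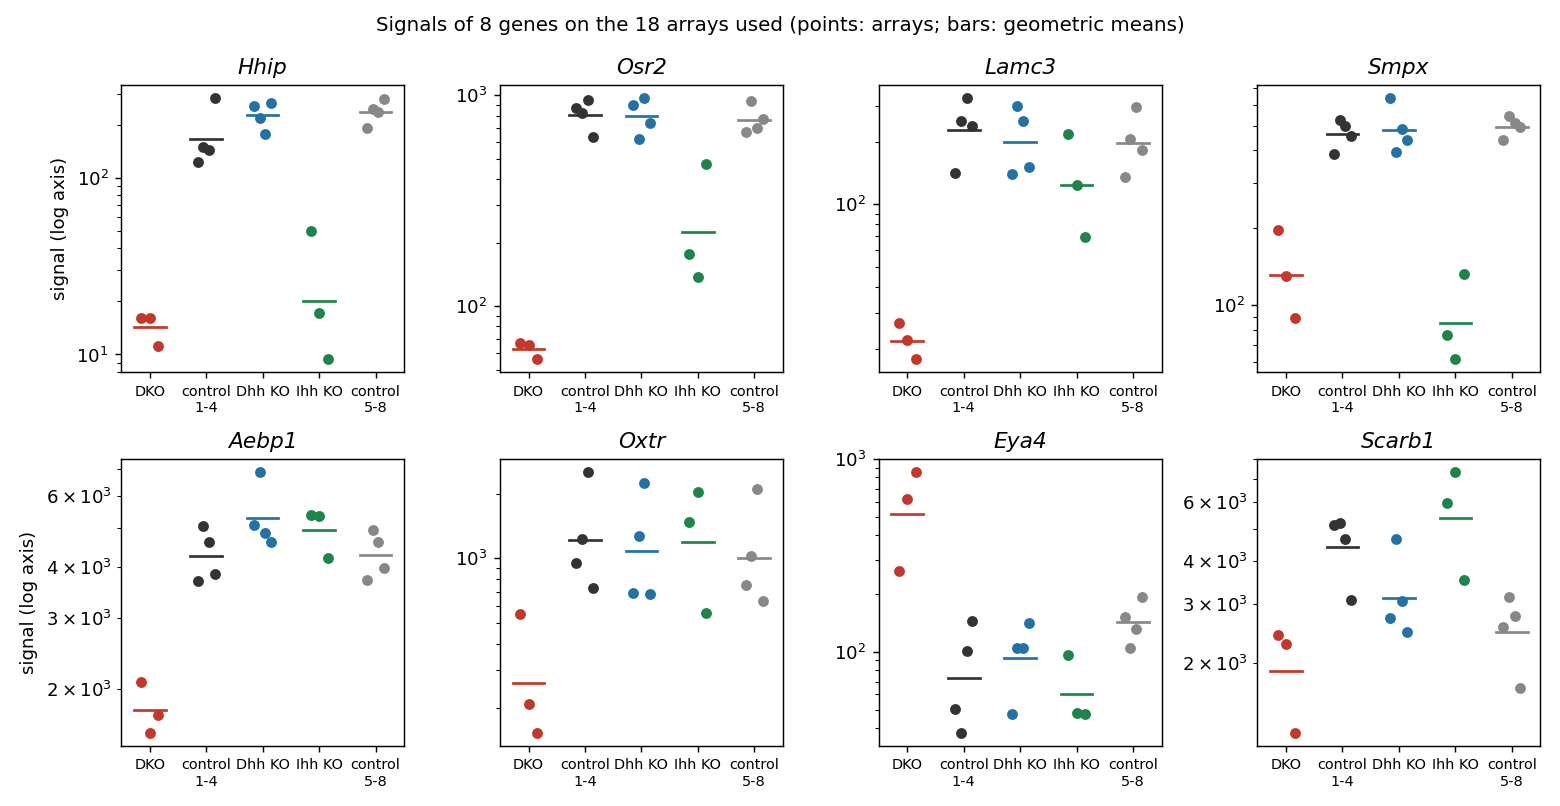
Signals of 8 genes on the 18 arrays used (log axis, points are arrays, bars are geometric means), with DKO beside controls 1 to 4 and the single losses beside controls 5 to 8. Hhip and Smpx were low on Ihh KO and on DKO arrays, Osr2 was lower on DKO (56.1 to 66.5) than on Ihh KO arrays (138 to 469), and Aebp1 and Lamc3 were low on DKO arrays (1559.9 to 2076 for Aebp1).

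Of the 38 additive genes, 30 were lower in DKO ovaries and 9 were called for Ihh loss. The 1 called for Dhh loss was the deleted gene Dhh itself. A 95% interval of the interaction within 1 log2 unit of 0 was found for 8 of the 38. Mgat4c, a glycosyltransferase, followed Hhip, with DKO signals of 15, 2.24 and 13, against 129, 49.6, 170.2 and 319 on controls 1 to 4. Its Ihh KO signals were 14.6, 4.97 and 44.5, and its interaction was 0.32 ± 0.91, an error wide enough to hold a change of 2-fold either way. Vgll3, a cofactor of TEAD transcription factors, had a joint change of −2.34 ± 0.39, an Ihh change of −1.44 ± 0.39 and a Dhh change of −0.65 ± 0.37, which left an interaction of −0.24 ± 0.64, with 0.433 and −0.12 on the other probe sets. Its DKO arrays at 189.8, 210.1 and 129 lay below all controls 1 to 4, at 625, 834, 2043 and 618. Pkdcc, a secreted protein kinase, was similar, with an interaction of −0.03 ± 0.57 and a predicted DKO signal of 692 against a geometric mean of 679. Klhdc8a, a kelch-domain protein, had 31.8, 11.8 and 21.2 on DKO arrays, against 111, 169.8, 216 and 122 on controls 1 to 4, and an interaction of −0.36 ± 0.64.

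Among the additive genes that were higher in DKO ovaries, Ackr3, a scavenging chemokine receptor, had one of the narrower errors. It was 2082, 2744 and 2942 on DKO arrays, against 1267, 916, 1018 and 1552 on controls 1 to 4. Dhh KO arrays gave 1321, 2013, 1193 and 1561 and Ihh KO arrays 1670.3, 1909 and 2239, against 1224, 899, 1149 and 1647 on controls 5 to 8. Ihh KO arrays lay just above their controls, Dhh KO arrays overlapped them, and the interaction was 0.15 ± 0.31. Gcnt1, a glycosyltransferase that branches O-glycans, had 505, 504 and 1636 on DKO arrays, against 245, 295, 116 and 89.6 on controls 1 to 4, with an interaction of −0.11 ± 0.70. Its Dhh change of 0.86 ± 0.40 and Ihh change of 1.37 ± 0.43 made it an additive gene by its brightest probe set. A second probe set gave a Dhh change of 0.183, an Ihh change of 0.368 and an interaction of 0.95, which lies within the limits of the joint-only class. Nuak2, a kinase related to AMPK, had 195, 223 and 335 on DKO arrays, against 120.0, 166, 102 and 57.7 on controls 1 to 4, and an interaction of −0.23 ± 0.49.

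In the less-than-the-sum class the single changes added up to more than the joint change. Of its 14 genes 11 were called for Ihh loss, among them the deleted gene Ihh itself. Smpx, which encodes a small muscle protein, was 196, 129.8 and 89.4 on DKO arrays, against 387, 525, 500 and 457 on controls 1 to 4. Ihh KO arrays gave 76.3, 61.7 and 132 and Dhh KO arrays 640.3, 396, 485 and 439, against 440.4, 543, 511 and 494 on controls 5 to 8. DKO and Ihh KO arrays overlapped each other and lay below all controls. The joint change was −1.76 ± 0.24, the Ihh change −2.44 ± 0.24 and the interaction 0.72 ± 0.39 (limma adjusted p 0.288). None of the 14 interactions was called by limma, and the 95% interval included 0 for 13 of them. The exception was Klhl14, with DKO signals of 48.2, 15.7 and 33.5, Ihh KO signals of 12.1, 7.87 and 50.9, and an interaction of 1.43 ± 0.65 (limma adjusted p 0.2).

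Several of these genes sat near the low end of the scale after Ihh loss. Npy1r, a neuropeptide Y receptor, was 38.7, 22.8 and 22.8 on DKO arrays, against 124, 121, 99.8 and 65.5 on controls 1 to 4. Its Ihh KO arrays gave 27.8, 31 and 49.9, against 178, 162, 125 and 105 on controls 5 to 8. Serpina5, a serine protease inhibitor, had an error too large to place it, with Ihh KO signals of 20.5, 25.6 and 625, controls 5 to 8 at 1987, 476, 1869.6 and 2716, and an interaction of 1.02 ± 1.40. The zinc transporter Slc30a2 was 114, 93.5 and 52.3 on DKO arrays, against 291, 217, 306 and 405 on controls 1 to 4, with Ihh KO at 33.5, 52.6 and 152 and an interaction of 0.70 ± 0.58. The DKO signals predicted by multiplying the single changes were 6.72 for Klhl14 and 14.7 for Npy1r, near the constant of 7.01 added to every signal before log2 was taken, and the part of that constant in this class was not tested beyond the alternatives given with the limits.

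Genes changed only by joint loss were led by Aebp1, a secreted collagen-binding protein of fibroblasts and smooth muscle, which had the smallest interaction p. Its signal was 2076, 1559.9 and 1725 on DKO arrays, against 3695, 5067, 4623 and 3848 on controls 1 to 4. Dhh KO arrays gave 5083, 6884, 4859 and 4620.4 and Ihh KO arrays 5374, 5362 and 4214, against 3724, 4942, 4603 and 3972 on controls 5 to 8. All DKO arrays were below every other array, and both single losses overlapped their controls. Joint loss changed it by −1.26 ± 0.14, Dhh loss by 0.31 ± 0.13, Ihh loss by 0.21 ± 0.14, and the interaction was −1.78 ± 0.23 (limma adjusted p 0.00417). The interaction remained called in all 18 fits that left out 1 array, between −1.90 and −1.65, and the other Aebp1 probe sets gave −2.13 and −2.06. With the controls unmatched its adjusted p was 0.0505.

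Oxtr, the oxytocin receptor, a G-protein-coupled receptor best known from smooth muscle, was 549.7, 209 and 153 on DKO arrays, against 948, 1236, 2544 and 731 on controls 1 to 4. Dhh KO arrays gave 692, 1278, 2258 and 685 and Ihh KO arrays 1484, 2039 and 553, against 749.7, 1029.9, 2105 and 631 on controls 5 to 8. DKO arrays lay below all controls 1 to 4, and the single losses overlapped controls 5 to 8. The log2 change with joint loss was −2.19 ± 0.51 and the interaction −2.53 ± 0.82, which was not called (limma adjusted p 0.0908). Leaving out 1 array gave interactions between −3.08 and −2.14, called in 1 of 18 fits, and a second probe set gave −1.07. Matched controls moved together in Oxtr, with 2544 on control 3 and 2105 on control 7.

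Other joint-only genes that were lower in DKO ovaries included membrane transport and channel genes. Slc47a1, an exporter of organic cations, was 37.4, 17.7 and 14.2 on DKO arrays, against 172, 155, 248 and 99.3 on controls 1 to 4, with an interaction of −3.05 ± 0.84 (limma adjusted p 0.0575). The potassium channel Kcnk3 was 232, 274 and 311 on DKO arrays, against 802, 1318, 2316 and 1037 on controls 1 to 4, with an interaction of −1.86 ± 0.63 (limma adjusted p 0.0991) and −0.662 on another probe set. DKO arrays were below all controls 1 to 4 for both. Kcnk15, another potassium channel, had an interaction of −1.72 ± 0.82 (limma adjusted p 0.228), and Sez6l2, a membrane protein of neurons, one of −1.58 ± 0.63 (limma adjusted p 0.149). A second Sez6l2 probe set had an Ihh change of −1.06 and an interaction of −1.42, which meet the more-than-the-sum limits. Called interactions were found for Mamdc2, at −2.43 ± 0.49 (limma adjusted p 0.0272), and for Nhsl2, at −1.61 ± 0.39 (limma adjusted p 0.0402). Mamdc2 was 112, 155 and 74.2 on DKO arrays, against 497, 675, 324 and 281 on controls 1 to 4, and all 7 single-loss arrays lay between 351 and 699. Nhsl2 was 343, 262 and 287 on DKO arrays, and no other array of the 18 was below 582, while another Nhsl2 probe set gave an interaction of −0.985. On that probe set the Ihh change was −0.771, which meets the more-than-the-sum limit.

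The 75 joint-only higher genes included epithelial and vascular genes. Sema3e, a secreted guidance cue for axons and vessels, was 228, 587 and 568 on DKO arrays, against 99.2, 48.5, 41 and 120.2 on controls 1 to 4. Single-loss arrays gave 122, 142, 76.4 and 118 for Dhh KO and 109.7, 139 and 131 for Ihh KO, against 153, 92.4, 77.2 and 94 on controls 5 to 8. DKO arrays exceeded all others, and the interaction was 2.04 ± 0.61 (limma adjusted p 0.0707), with 1.29 on another probe set. That probe set had an Ihh change of 0.628, which meets the more-than-the-sum limit. Igfbp1, an insulin-like growth factor binding protein, was 119, 176 and 418 on DKO arrays, against 35.5, 56.2, 44.1 and 82.6 on controls 1 to 4, with an interaction of 2.82 ± 0.61 (limma adjusted p 0.0338). Controls 5 to 8 read higher, at 69.4, 80.4, 82.2 and 175. With all 8 controls as 1 mean the Igfbp1 interaction was 1.64 (limma adjusted p 0.0473). Clec1b, the podoplanin receptor of platelets, was 510.0, 674 and 247 on DKO arrays, against 86.1, 80.8, 85.4 and 72.4 on controls 1 to 4, with an interaction of 2.45 ± 0.62 (limma adjusted p 0.0460). The mast cell tryptase Tpsb2 was 862, 379 and 107 on DKO arrays, against 58.7, 44.5, 37.7 and 33.8 on controls 1 to 4, with Ihh KO at 111, 127 and 40.6 and an interaction of 2.64 ± 0.86 (limma adjusted p 0.0922). DKO 1 was its highest array, as for Cma1 and the summed mast cell markers.

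Several epithelial genes were highest on DKO 1 and DKO 3. Wfdc2, a secreted protein of the oviduct and other reproductive tract epithelia, was 699, 139 and 1691 on DKO arrays, against 82.5, 72.4, 58.9 and 65.5 on controls 1 to 4. Its interaction was 3.27 ± 0.89 (limma adjusted p 0.0549), and 1.34 without DKO 1 and DKO 3 (limma adjusted p 0.31). Cdh1, which encodes E-cadherin, was 787, 468 and 1184 on DKO arrays, against 218, 160.1, 174 and 276 on controls 1 to 4, with an interaction of 1.62 ± 0.43 (limma adjusted p 0.0523). The epithelial keratin gene Krt18 was 1619, 1495 and 2649 on DKO arrays, against 870.0, 733, 768 and 507 on controls 1 to 4, with an interaction of 0.99 ± 0.31 (limma adjusted p 0.0827). Epcam, an epithelial adhesion molecule, had an interaction of 0.93 ± 0.39 (limma adjusted p 0.166), and the membrane protease Tmprss2, at 404, 131 and 492 on DKO arrays, against 117, 92.8, 97.8 and 26.7 on controls 1 to 4, had 2.06 ± 0.78 (limma adjusted p 0.133). DKO 2 was the lowest DKO array for each of these epithelial genes except Epcam, where DKO 1 was at 1029 and DKO 2 at 1111. A second Epcam probe set had an Ihh change of 0.635 and an interaction of 0.715, which meet the more-than-the-sum limits. Plet1, an epithelial surface protein chosen after its values were seen, belonged to the more-than-the-sum class, at 1949, 227 and 3456 on DKO arrays, against 249, 41.9, 65.2 and 87.7 on controls 1 to 4. Its interaction was 2.40 with all arrays and 0.0868 without DKO 1 and DKO 3. The 12 oviduct markers summed to 7276, 954.9 and 11840 on DKO 1 to 3, against 454.1 to 1079 on controls 1 to 4. They summed to 652.5 to 846.2 on Dhh KO and 798.7 to 971.4 on Ihh KO arrays, against 759.9 to 2008 on controls 5 to 8. Foxj1, which marks ciliated cells, was under the signal filter, at 245 ± 367 on DKO arrays (SD, n = 3) and 12.5 ± 21.3 on controls 1 to 4 (n = 4). Adipocyte markers were high on the same arrays, and the 6 of 8 with a probe set summed to 8071, 1965 and 10520 on DKO 1 to 3, against 1642 to 4227 on controls 1 to 4. They summed to 2070 to 3965 on Dhh KO and 3501, 3220 and 6160 on Ihh KO arrays, against 1614 to 4295 on controls 5 to 8. Without DKO 1 and DKO 3 the interaction was 0.93 for Cdh1 and 0.91 for Tmprss2 (limma adjusted p 0.275 and 0.604). The part of oviduct and fat tissue in these epithelial values was not tested beyond that fit.

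In the opposed class the estimate of a single loss ran the other way, so the interaction exceeded the joint change. Scarb1, the receptor that takes up cholesterol from high-density lipoprotein, was 2419.9, 2275 and 1248 on DKO arrays, against 5123, 5197, 4651 and 3075 on controls 1 to 4. Ihh KO signals were 5951, 7358 and 3534 and Dhh KO signals 2726, 4659.6, 3046 and 2468, against 2565, 3142, 2759 and 1689 on controls 5 to 8. DKO arrays were below their controls and Ihh KO arrays above theirs, without overlap in either case. The joint change was −1.21 ± 0.27, the Ihh change 1.11 ± 0.27, the Dhh change 0.34 ± 0.25 and the interaction −2.66 ± 0.44 (limma adjusted p 0.0159). Controls 1 to 4 read higher than their matched controls 5 to 8, and with all 8 controls as 1 mean the interaction was −1.41 (limma adjusted p 0.0382). Star, which carries cholesterol into mitochondria for steroid synthesis, was 2289, 2738 and 666 on DKO arrays, against 4243, 6031, 7260.1 and 5264 on controls 1 to 4. Ihh KO arrays gave 8115, 10792 and 6827, against 4398, 6297, 7145 and 5873 on controls 5 to 8, and the interaction was −2.08 ± 0.53 (limma adjusted p 0.0483). Without DKO 3, whose signal was the lowest, the Star interaction was −1.44 (limma adjusted p 0.0539). Efhd1, a calcium-binding protein of mitochondria, was 1768, 2154 and 467 on DKO arrays, against 3531, 4866, 3518 and 2243 on controls 1 to 4, with Ihh KO at 2986, 4623 and 7351 and an interaction of −2.31 ± 0.63 (limma adjusted p 0.0549). Plch2, a phospholipase C, was 84.1, 94.9 and 49.5 on DKO arrays, against 253, 398, 312 and 172 on controls 1 to 4, with Ihh KO at 855, 582 and 233 and an interaction of −3.67 ± 0.78 (limma adjusted p 0.0311). Its Ihh KO arrays overlapped controls 5 to 8, at 189, 382, 283 and 103. Plch2 kept this class in 10 of 34 alternative settings and Efhd1 in 15 of 34.

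Eya4, a transcriptional coactivator with phosphatase activity, was the opposed gene with the highest joint change. It was 261, 617 and 856 on DKO arrays, against 50.5, 38, 101 and 145 on controls 1 to 4. Dhh KO arrays gave 47.4, 104, 105 and 141 and Ihh KO arrays 95.8, 48 and 47.3, against 152, 105, 131 and 193 on controls 5 to 8. DKO arrays exceeded every other array, Ihh KO arrays lay below all their controls, and Dhh KO arrays overlapped theirs only in part. The interaction was 4.41 ± 0.74 (limma adjusted p 0.0162), the other Eya4 probe sets gave 4.79 and 3.84, and without DKO 1 and DKO 3 it was 4.67 (limma adjusted p 0.0271). Calb1, a calcium buffer, was 259, 399 and 1647 on DKO arrays, against 116, 133, 159 and 254 on controls 1 to 4, with an interaction of 3.42 ± 0.77 (limma adjusted p 0.0345), and was opposed in 7 of 33 alternative settings, against 33 of 33 for Eya4. Emilin3, an extracellular glycoprotein, was 156, 196 and 453 on DKO arrays, against 38.6, 100, 77.9 and 95.4 on controls 1 to 4, with an interaction of 2.61 ± 0.61 (limma adjusted p 0.0365). Nell1, a secreted protein, was 250.3, 552 and 731 on DKO arrays, against 145, 197, 134 and 236 on controls 1 to 4, with an interaction of 2.04 ± 0.49 (limma adjusted p 0.0391). DKO arrays lay above all controls 1 to 4 for each of them, and the order of the DKO arrays was the same as for Eya4. Padi2, a peptidyl arginine deiminase, had an interaction of 2.02 ± 0.55 (limma adjusted p 0.0549).

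For some opposed genes the control sets themselves were far apart. Cldn3, a tight-junction protein of epithelia, was 179, 107 and 448 on DKO arrays, against 66.4, 47.6, 72 and 34.2 on controls 1 to 4. Single-loss arrays gave 169, 171, 196 and 193 for Dhh KO and 175, 117 and 85.5 for Ihh KO, against 467, 286, 226 and 196 on controls 5 to 8. Its interaction of 3.57 ± 0.63 (limma adjusted p 0.0214) was 0.205 with all 8 controls as 1 mean, and 1.89 on another probe set. That probe set had a Dhh change of −0.26 and an Ihh change of −0.00426, which meet the joint-only limits. The same held for Urah, which had no called joint change, with controls 1 to 4 at 53.2 to 80.3 and controls 5 to 8 at 359, 477, 451 and 83, and whose interaction of 4.53 ± 1.14 (limma adjusted p 0.0460) was 1.51 with all controls as 1 mean. Dlk2 (3.51 ± 0.88), Tmem213 (3.36 ± 0.76), Agmat (2.80 ± 0.65), Spag8 (2.73 ± 0.64) and the carbonyl reductase Cbr2 (3.17 ± 0.79) also had called positive interactions without a called joint change. Tmem213 was 324, 88.3 and 87.6 on DKO arrays, against 60.2, 33, 61.5 and 54.5 on controls 1 to 4, and its Dhh KO and Ihh KO arrays lay between 61 and 117, against 99.9 to 288 on controls 5 to 8. The difference between the control sets was called by limma for 6747 of the 12402 genes. Its part in the interactions was not tested. The fit with all 8 controls as 1 mean does not remove that difference, so it cannot decide its part. Under that fit 255 of the 274 called interactions kept their sign and 177 were called, where 3262 of all 12402 genes were called. In that fit the interaction was 1.65 for Dlk2, 0.834 for Tmem213, 1.29 for Spag8 and 1.31 for Clec1b, none of them called (limma adjusted p 0.115, 0.463, 0.128 and 0.0833).

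The 3 called interactions of largest size lay outside the classes, in genes whose single-loss estimates were positive and whose joint estimates were negative. Plin4, a lipid-droplet coat protein, was 156, 228 and 279.6 on DKO arrays, against 546, 1996, 771 and 96.4 on controls 1 to 4. On Ihh KO arrays it was 2610.2, 2578 and 1525 and on Dhh KO arrays 979, 2593, 379 and 476, against 268, 1219, 354 and 79.5 on controls 5 to 8. Ihh KO arrays exceeded all their controls, whereas DKO arrays and Dhh KO arrays overlapped theirs. Joint loss changed it by −1.30 ± 0.73, Ihh loss by 2.77 ± 0.73, Dhh loss by 1.37 ± 0.67, and the interaction was −5.44 ± 1.17 (limma adjusted p 0.0331). Lipg, endothelial lipase, had an interaction of −5.05 ± 1.18 (limma adjusted p 0.0376) and Timp1, an inhibitor of matrix metalloproteinases, one of −3.14 ± 0.72 (limma adjusted p 0.0361). Tnfrsf9, a costimulatory receptor of lymphocytes, had an interaction of −6.42 ± 1.65 (limma adjusted p 0.0492), and −3.52 on another probe set. Cish, an inhibitor of cytokine signalling, had −3.50 ± 0.82, the kinase Mapkapk3 −2.71 ± 0.60 and Unc13d, a regulator of granule release, −3.85 ± 0.99 (limma adjusted p 0.0369, 0.0339 and 0.049). With all 8 controls as 1 mean Unc13d had −1.61 and Timp1 −1.47, neither called (limma adjusted p 0.19 and 0.167). Controls varied widely in these genes, from 10.9 to 564 for Tnfrsf9 within controls 1 to 4, and matched controls varied together.

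**Figure D4:**
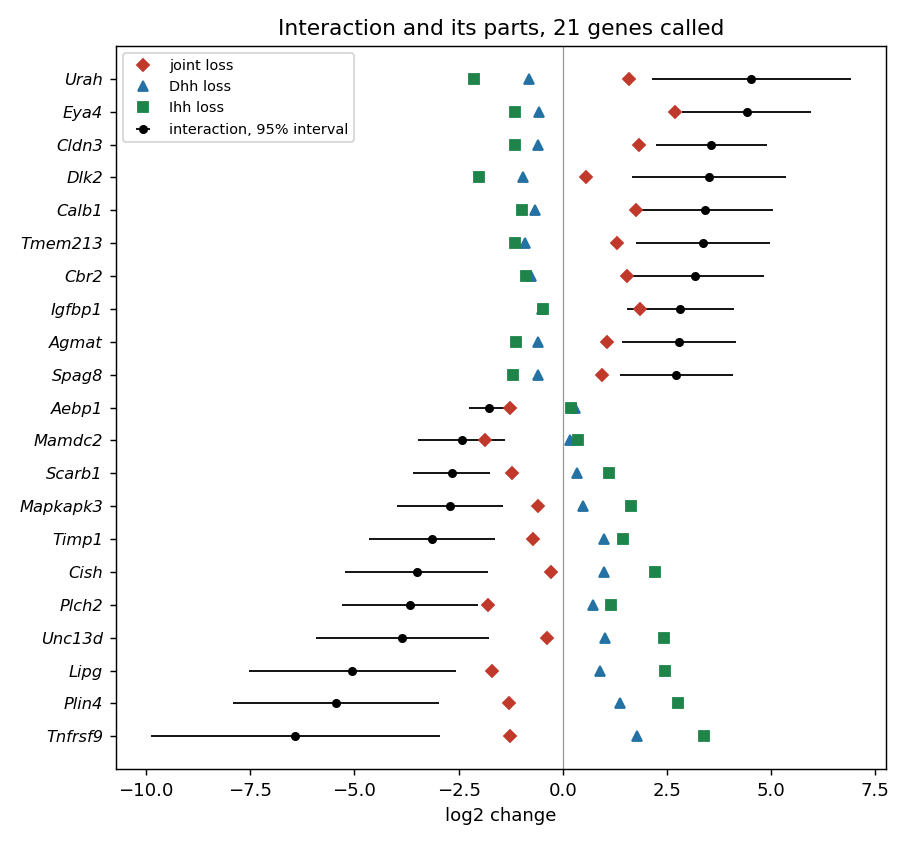
Interaction with its 95% interval (black) beside the joint, Dhh and Ihh changes, all log2, for 21 genes with called interactions. These are the 10 most positive, the 10 most negative by the fixed rule, and Aebp1. The interval is narrowest for Aebp1, and the Ihh change lies opposite to the joint change for Scarb1, Eya4 and Plin4.

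On the list of theca and steroidogenesis genes, 3 of 7 tested members had called negative interactions (Scarb1, Star and Fdx1) and none a positive one, against 0.734% and 1.48% of all genes. Cyp11a1 is also on the corpus luteum list, and the cell type behind these signals was not tested. The median interaction of the list was −2.08, against 0.0772 over all tested genes, and the median joint change was −1.21. Joint loss was called lower for 5 of 7, against 1.84% of all genes. Fdx1, the ferredoxin that passes electrons to mitochondrial steroidogenic enzymes, was 7996, 6223 and 5503 on DKO arrays, against 11985, 12254, 13639 and 9300.4 on controls 1 to 4. Its single-loss arrays lay between 9339 and 11605, against 8226 to 9968 on controls 5 to 8, and the interaction was −1.05 ± 0.20 (limma adjusted p 0.0231). Cyp11a1, which makes pregnenolone from cholesterol, was 6016, 4928 and 1055 on DKO arrays, against 10671, 11658, 11398 and 5545 on controls 1 to 4. DKO 1 overlapped control 4, and the interaction was −2.43 ± 0.63 (limma adjusted p 0.0503), with −1.29 on another probe set. Cyp17a1, the androgen-forming enzyme of the theca, had an interaction of −2.35 ± 2.37, too wide to place.

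Of 15 tested cholesterol synthesis genes 5 had called negative interactions (Hmgcs1, Sc5d, Ebp, Fdps and Fdft1), against 0.734% of all genes. After Ihh loss 3 were called higher (0.129% of all genes), and after joint loss 1 was called lower (1.84%). The Ebp interaction of −0.99 was −0.0852 with all 8 controls as 1 mean (limma adjusted p 0.853), and that of Fdft1, at −1.40, was −0.549 on a second probe set. The list's median changes were −1.33 for the interaction, −0.33 for joint loss and 0.82 for Ihh loss. Hmgcs1, an early enzyme of the pathway, was 5153, 4563 and 5799 on DKO arrays, against 6897, 7261, 7768 and 5421 on controls 1 to 4. Its Ihh KO values were 9274, 12466 and 8892 and its Dhh KO values 8381, 8673, 7656 and 6429.7, against 6506, 6724, 7123 and 5667 on controls 5 to 8. Ihh KO arrays lay above all their controls, and DKO arrays overlapped theirs at control 4. The interaction was −1.29 ± 0.21 (limma adjusted p 0.0159), called in 17 of 18 fits that left out 1 array. Sc5d, a sterol desaturase, was 961, 758 and 726 on DKO arrays, against 1758, 1239.8, 1601 and 1315 on controls 1 to 4, and Ihh KO arrays gave 2992, 4729 and 2070.1, against 1796, 1375, 1674 and 1351 on controls 5 to 8. Its interaction was −1.92 ± 0.35 (limma adjusted p 0.0214).

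The corpus luteum list had a median interaction of −2.91 and a median Ihh change of 1.72, with 0 of 7 tested members called for the interaction in limma, 4 at an unadjusted p under 0.05, and errors between 0.63 and 2.00. The widest were those of Onecut2, a transcription factor, at −4.39 ± 2.00, and Akr1c18, a progesterone-inactivating enzyme, at −3.88 ± 1.90. Ptgfr, the prostaglandin F receptor, had −4.76 ± 1.69, and −2.01 on another probe set.

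Smooth muscle genes fell with joint loss in 7 of 13 tested members, against 1.84% of all genes. A called interaction was found for 1 of 13, where 2.21% of all genes had one. Acta2, smooth muscle actin, was 6022, 3229 and 3921 on DKO arrays, against 7571, 9186, 7878 and 7205 on controls 1 to 4. Single-loss arrays lay between 5472 and 8021, against 5651 to 6718 on controls 5 to 8. Its interaction was −1.02 ± 0.25 (limma adjusted p 0.0391), and −0.42 with all 8 controls as 1 mean. Myh11, smooth muscle myosin, was 1221, 236 and 828 on DKO arrays, against 1784, 3018, 2881 and 2299 on controls 1 to 4, with an interaction of −1.43 ± 0.59 (limma adjusted p 0.165). Tpm2, a tropomyosin, had −0.85 ± 0.24 and the myosin kinase Mylk −0.58 ± 0.21 (limma adjusted p 0.0618 and 0.119). The list's median was −0.58 for the interaction, −1.03 for joint loss, −0.09 for Dhh loss and −0.32 for Ihh loss.

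Endothelial genes had 2 called negative interactions among 13 tested, against 0.734% of all genes. Emcn, a sialomucin of capillary endothelium, was 634, 539 and 377 on DKO arrays, against 907, 953, 1262 and 921 on controls 1 to 4. After Ihh loss the arrays read 1508, 1666 and 1119 and after Dhh loss 1192, 1310.4, 1635 and 1269.7, against 991, 1220.3, 1440.4 and 1084 on controls 5 to 8. DKO arrays were below every other array, and the interaction was −1.44 ± 0.29 (limma adjusted p 0.0257). Tek, the angiopoietin receptor, was 464, 378 and 249 on DKO arrays, against 527, 580.2, 627 and 481 on controls 1 to 4, with an interaction of −1.29 ± 0.32 (limma adjusted p 0.0428). The list's median interaction was −0.75.

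Granulosa cell genes had 0 called interactions and 0 called joint changes among 13 tested in limma, near the 2.21% and 3.54% of all genes, with 1 and 3 at an unadjusted p under 0.05 and a median interaction of 0.26. Foxl2, a transcription factor that maintains granulosa identity, had an interaction of 0.26 ± 0.18, and Inha, an inhibin subunit, 0.11 ± 0.18. Surface epithelium genes had 0 called interactions in limma, 5 at an unadjusted p under 0.05, and a median of 0.85, with 4 of 13 called higher and 1 lower after joint loss (1.7% and 1.84% of all genes). Oviduct epithelium genes had 1 called interaction (Cldn3) and 4 called higher after joint loss among 6 tested of 12. The other 6 did not pass the filter on low signals, so these counts are no value for the whole list. Cell division genes had positive interactions in 11 of 11 tested members, against 7017 of all 12402 genes, with the signals as deposited. Median centring lowers every interaction by the shift given above, which exceeds the 0.0692 of Mki67, a proliferation marker. A called interaction was found in 1 of the 11, Bub1, a mitotic checkpoint kinase, at 0.96 ± 0.21 (limma adjusted p 0.0339). Oocyte genes had 1 of 13, the germ-cell transcription factor Sohlh1, at 1.70 ± 0.39 (limma adjusted p 0.0365), and 0.348 with all 8 controls as 1 mean (limma adjusted p 0.58). The sign of each list's median interaction was the same under quantile normalization and median centring, except for the macrophage list, whose median was 0.21 and turned to −0.0209 under median centring.

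**Figure D5:**
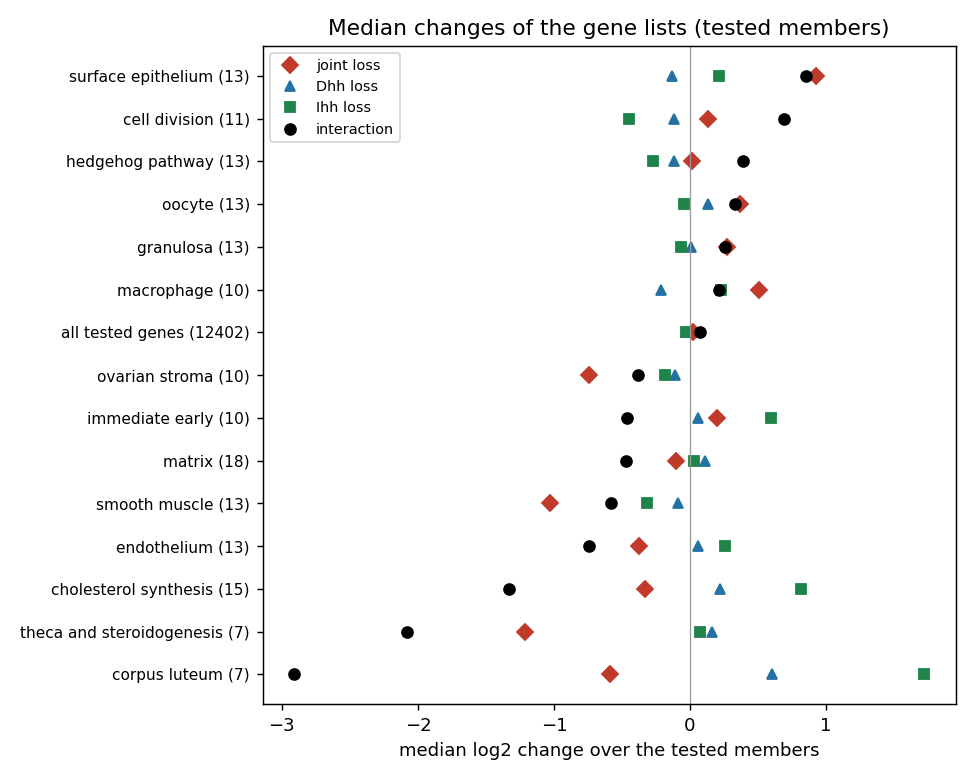
Median log2 change over the tested members of each gene list (number tested in brackets) for joint loss, Dhh loss, Ihh loss and the interaction. Lists of which under 75% of the members with a probe set were tested are not drawn. Median interactions were −2.91 for corpus luteum and −2.08 for theca and steroidogenesis, against 0.0772 for all tested genes.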

How the data were processed

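Whole-ovary RNA of 19 arrays was measured as Affymetrix signal intensity on a linear scale. Per the submitters' processing notes the signals come from MAS5, and the deposited intensity values of each array have a 2% trimmed mean of 500. Of 45101 probe sets, 34945 carry 1 gene symbol, 932 several and 9160 none in the platform annotation, beside 64 Affymetrix controls. A constant of 7.01, the 10th percentile over all arrays, was added to each signal before log2 was taken. Each gene was represented by its brightest probe set among those with 1 gene symbol. A filter at the 40th percentile of probe set means (signal 68.7) left 12402 genes. Symbols were matched to RefSeq for 34741 probe sets.

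limma 3.58.1 in R 4.3.3 fitted 18 arrays with 5 means (DKO, controls 1 to 4, Dhh KO, Ihh KO, controls 5 to 8), an intensity trend and a correlation between matched controls. P-values are two-sided and Benjamini-Hochberg adjusted over all 12402 genes, and "called" means an adjusted p under 0.05. Of the 4 comparisons, the Dhh and Ihh changes share controls 5 to 8, and all 3 enter the interaction. The labels mention neither sets nor matches. Arrays with the same replicate number correlated at 0.133 to 0.207 between DKO and Dhh KO. The correlations were 0.0975 to 0.429 between controls 1 to 4 and Dhh KO, and 0.0771 to 0.272 between controls 1 to 4 and DKO. Pairs with Ihh KO arrays lay between −0.204 and 0.154. The labels give the replicate numbers no meaning. The fit was tested on simulated data with planted interactions, drawn with the correlation between matched controls that the fit assumes. That test therefore cannot show whether the controls match in the real arrays. The number of arrays limits the precision.

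The classified genes and all gene lists were chosen with earlier results of these data known. Named genes are the ligands and targets, the 10 most positive and most negative called interactions, the 6 highest and lowest joint changes of each class among genes whose DKO arrays do not overlap controls 1 to 4, and up to 4 members of each list with the smallest interaction p, skipping clone and Gm names. A selection of these is described, and Aebp1, Plet1, Sc5d and members named for their role were added after their values were seen.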

Additional observations from a re-analysis of the deposited data

Results flagged for a closer look

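Among the 93 genes named, 279 groups of 4 arrays were examined for an array far from the others, and 10 had one, where chance gives about 1 group in 20. On controls these were Ptch1 on control 8 (5104, others 4236 to 4351), Tmprss2 on control 4 (26.7, others 92.8 to 117), Cyp11a1 on control 4 (5545, others 10671 to 11658) and Emcn on control 3 (1262, others 907 to 953). Further control arrays were Myh11 on control 5 (2052, others 3115 to 3258), Cish on control 8 (74.2, others 138 to 149) and Urah on control 8 (83, others 359 to 477). On Dhh KO 2 these were Slc30a2 (247, others 312 to 315), Agmat (40.7, others 69.1 to 76.1) and Tek (1206, others 722 to 787).

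The joint change differed from the sum of the single changes, by limma's test of the interaction, for 39 of the named genes. Negative interactions among the classified genes were Lamc3 (−2.41), Sorcs2 (−1.43), Aebp1 (−1.78), Nhsl2 (−1.61), Mamdc2 (−2.43), Star (−2.08), Scarb1 (−2.66) and Plch2 (−3.67). Positive ones among them were Clec1b (2.45), Igfbp1 (2.82), Eya4 (4.41), Cldn3 (3.57), Calb1 (3.42), Emilin3 (2.61) and Nell1 (2.04). Among genes with no class, negative interactions were Fdx1 (−1.05), Acta2 (−1.02), Hmgcs1 (−1.29), Sc5d (−1.92), Ebp (−0.99), Fdps (−2.08), Fdft1 (−1.40), Emcn (−1.44) and Tek (−1.29). Larger ones were Tnfrsf9 (−6.42), Plin4 (−5.44), Lipg (−5.05), Unc13d (−3.85), Cish (−3.50), Timp1 (−3.14) and Mapkapk3 (−2.71). Positive interactions with no class were Urah (4.53), Dlk2 (3.51), Tmem213 (3.36), Cbr2 (3.17), Agmat (2.80), Spag8 (2.73), Bub1 (0.96) and Sohlh1 (1.70).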

How the results depend on the processing

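The sign of the 274 called interactions was kept by all of them under quantile normalization, by 273 with the mean of probe sets and by 255 with all 8 controls as 1 mean, but their number was not stable. Unmatching the controls leaves the estimates as they are, and median centring shifts them all alike by less than the smallest called size, so neither could turn a sign. Limma called 136 interactions after quantile normalization, 81 after median centring, 1363 with array weights, 415 with the array labelled Ihh KO 4 kept, 3262 with all 8 controls as 1 mean, 0 with controls unmatched, 0 with the replicate number as a block (1929 at an unadjusted p under 0.05) and, added after seeing the data, 20 without DKO 1 and DKO 3 and 0 with the Gapdh ratio as a covariate. The replicate block pairs arrays only by their numbers. The cause of these differences was not tested. Leaving out 1 array gave 4 to 848 interaction calls, 226 to 499 joint calls, 1 to 7 Dhh calls and 8 to 112 Ihh calls. It gave 68 to 159 joint-only genes, 28 to 46 more than the sum, 30 to 46 additive, 7 to 18 less than the sum and 4 to 24 opposed, and the lowest interaction counts were 4 without Ihh KO 2, 12 without DKO 3 and 17 without control 5. Without DKO 3 the counts of joint-only and opposed genes were lowest, at 68 and 4.

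Joint calls were 292 after median centring, 773 with array weights and 146 without DKO 1 and DKO 3. Dhh calls were 0 with the filter at the 60th percentile, 0 with Ihh KO 4 kept and 3 with all controls as 1 mean. Ihh calls were 35, 0 and 122 under the same alternatives and 1049 with array weights. With the stricter filter, which tests fewer genes, the classes held 72 joint-only, 23 more-than-the-sum, 24 additive, 6 less-than-the-sum and 7 opposed genes. Opposed genes numbered 7 after quantile normalization, 12 with a higher pseudocount, 32 without a filter, 33 with array weights, 12 with Ihh KO 4 kept, 29 with all controls as 1 mean and 41 with the Gapdh covariate. Less-than-the-sum genes numbered 5 after median centring, 4 with Ihh KO 4 kept, 9 with all controls as 1 mean and 27 when single changes were added as signals instead of logs, where 25 were additive. Array weights gave 60 additive genes. Without DKO 1 and DKO 3 there were 56 joint-only, 13 additive, 2 less-than-the-sum and 5 opposed genes. With a class limit of 0.3 there were 61 joint-only, 83 more-than-the-sum, 21 additive and 49 opposed genes, and with 0.75 there were 16 more-than-the-sum, 70 additive, 6 less-than-the-sum and 6 opposed genes. Among named genes called in the fit as reported or under the alternative itself, only Wbscr25 changed the sign of its interaction, which was −0.61 with all controls as 1 mean and 2.38 in the fit as reported. Estimates that were not called also changed sign, such as Hhip, at −0.60 with all controls as 1 mean, and Gcnt1, at 0.17 without DKO 1.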
